A study of Mus musculus with 14 samples.

Results

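The acyl-CoA thioesterases are the enzymes that cut an acyl-CoA into a free fatty acid and coenzyme A, and 9 mouse genes of the family, Acot1, Acot2, Acot3, Acot4, Acot7, Acot8, Acot9, Acot12 and Acot13, were followed through a feeding study of the liver. They were taken by gene symbol from the annotation of the array. Each had 1 probe set, and they are 9 of 19505 named genes. RNA came from adult male wild-type C57Bl6 mice and was hybridised to 14 Clariom S arrays, 1 array per preparation. The mice ate for 2 weeks either CDAA, a choline-deficient diet that was supplemented here with cholesterol, glucose and fructose, or CSAA, the control diet. Total liver was the caudal lobe, taken after saline had been flushed through the heart, and gave 4 arrays on CDAA and 4 on CSAA. Primary hepatocytes, freed with collagenase in a perfusion of 2 steps, gave 3 arrays on CDAA and 3 on CSAA, and the 2 tissues went through different RNA kits.

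The family falls into type I and type II enzymes, which are unrelated in sequence and share the reaction. The mouse type I genes lie next to each other on chromosome 12, and their products are sent to the cytosol (Acot1), the mitochondrion (Acot2) or the peroxisome (Acot3 and Acot4). In mouse liver these genes are known as targets of PPARα, the nuclear receptor that fatty acids activate, and they respond to fasting and to drugs of the fibrate class. The type II enzymes are built on the hotdog fold and are encoded on several chromosomes. Fatty acyl-CoA is the common substrate of oxidation and of triglyceride synthesis, so the thioesterases stand at a branch point of lipid handling in the hepatocyte.

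Values are log2 intensities, so that a step of 1 doubles the signal. The tissues appear to have been normalised as separate sets, with array medians of 6.07 to 6.24 in total liver and 4.56 to 4.71 in hepatocytes, so that only diet differences, and not levels, are set side by side between them. A diet effect is CDAA minus CSAA from 1 limma fit over the 14 arrays, given ± SE. A gene passed where its p, adjusted over 22206 probe sets, was under 0.05. The p-values measure the spread between preparations. Background was read from intron control probe sets, whose 95th percentile lay at 9.96 to 10.23 in total liver and at 6.84 to 8.01 in hepatocytes. Where every array of a group lay under that percentile, the group has only an upper limit, and the bound is the diet effect left when the percentile of each array takes the place of the measured value in that group. There is no bound where that leaves no difference in the same direction, or where the other group lay wholly under the percentile too.

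The arrays labelled primary hepatocytes carried the hepatocyte markers, with a list mean over 14 genes of 16.60 to 17.21 on CDAA and 17.39 to 17.51 on CSAA. Of these markers 1 rose and 4 fell there, Cps1 (-1.35), Hnf4a (-1.72), Asgr2 (-1.63) and F9 (-0.88), whereas in total liver 1 rose and none fell (limma). Those on CDAA also carried markers of other liver cells. The mean over 14 macrophage markers was 11.17 to 12.79 on CDAA, against 4.91 to 5.24 on CSAA, and all 14 rose. On CDAA 1 of them lay wholly under the background percentile, against 13 of them on CSAA. Endothelial markers rose in 9 of 10 cases and stellate cell markers in 9 of 9. In total liver 11 of 14 macrophage markers rose, with a list mean of 11.32 to 11.98 on CDAA and 7.91 to 8.41 on CSAA, and 3 lay wholly under the percentile on CDAA against 8 on CSAA. Endothelial markers rose there in 1 of 10 cases and stellate cell markers in 6 of 9. The part of these markers in the diet effects below was not tested. In material of mixed cells, more cells of a type and more RNA per cell cannot be told apart.

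Within the family, Acot2, Acot4 and Acot9 rose on CDAA in total liver, which is 3 of 9 genes, and none fell (limma). Over all probe sets 6.73% rose and 3.54% fell in that comparison. The same 3 genes rose in hepatocytes and none fell, where 11.0% of all probe sets rose and 7.74% fell. The median diet effect over the 9 genes was 1.77 in total liver and 1.70 in hepatocytes, against -0.09 and -0.13 over all probe sets. Every CDAA array lay above every CSAA array for 3 of the 9 genes in total liver and for 5 of 9 in hepatocytes, as it did for 13.1% and 12.4% of all probe sets. No gene of the family had the opposite order. The hepatocyte call of Acot4 was the weakest of these, as detailed below.

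**Figure D1:**
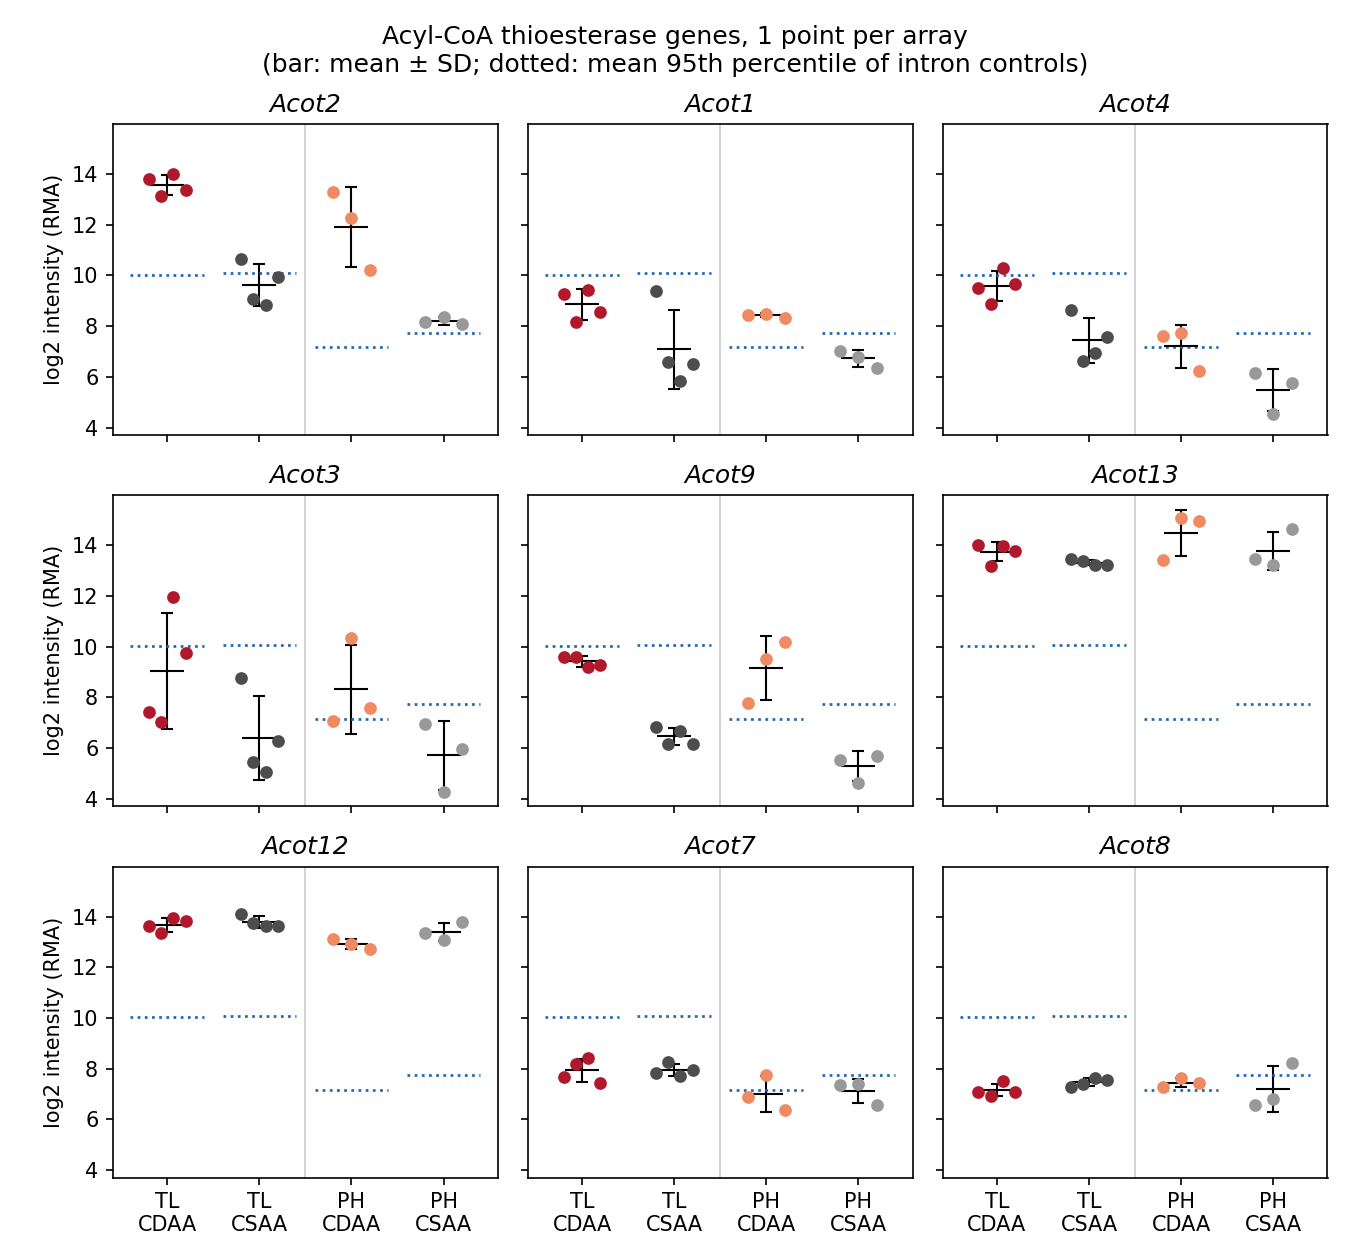
Log2 intensity (RMA) of the 9 acyl-CoA thioesterase genes in each of the 14 arrays, 1 point per array, with CDAA left of CSAA in total liver (TL) and primary hepatocytes (PH), bars for the group mean ± SD and dotted lines for the mean intron control percentile. Acot2 and Acot9 are set apart by diet in both tissues, at 13.14 to 13.99 on CDAA against 8.82 to 10.64 on CSAA for Acot2 in total liver, whereas Acot7 and Acot8 overlap; levels of the 2 tissues are not on a common scale.

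The chromosome 12 genes lie in the order Acot2, Acot1, Acot4, Acot3, with Acot5 and Acot6 after them. Their promoters are printed because the mean of each of the first 4 genes was higher on CDAA in both tissues, while the next 2 gave no signal above background. Acot1, Acot3 and Acot4 also lay under the background percentile in every CSAA array, and Acot1 in every total liver array. The sequences are from RefSeq (GRCm38.p6), from 250 bases before to 50 bases after the first listed start of each gene, and capitals mark AGGTCA, the half-site that nuclear receptors such as PPARα bind, on either strand.
Acot2 (chr12:83987611-83987910, plus strand): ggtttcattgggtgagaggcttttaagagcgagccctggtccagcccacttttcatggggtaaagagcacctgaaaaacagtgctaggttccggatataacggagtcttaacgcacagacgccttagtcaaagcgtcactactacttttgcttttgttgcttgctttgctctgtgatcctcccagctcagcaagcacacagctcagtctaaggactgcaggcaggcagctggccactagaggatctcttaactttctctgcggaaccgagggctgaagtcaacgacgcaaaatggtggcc
Acot1 (chr12:84009252-84009551, plus strand): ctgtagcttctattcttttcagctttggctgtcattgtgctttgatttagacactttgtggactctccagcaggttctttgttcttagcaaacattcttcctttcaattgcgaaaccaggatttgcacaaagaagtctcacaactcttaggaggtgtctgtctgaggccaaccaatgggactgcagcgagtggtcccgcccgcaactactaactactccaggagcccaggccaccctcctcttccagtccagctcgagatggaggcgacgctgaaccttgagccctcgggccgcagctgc
Acot4 (chr12:84038129-84038428, plus strand): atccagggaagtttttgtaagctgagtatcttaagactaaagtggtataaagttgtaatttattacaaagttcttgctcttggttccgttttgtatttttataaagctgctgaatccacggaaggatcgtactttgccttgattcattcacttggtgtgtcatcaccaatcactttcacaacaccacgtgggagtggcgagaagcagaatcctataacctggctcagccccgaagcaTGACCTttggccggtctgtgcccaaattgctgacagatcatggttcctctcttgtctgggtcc
Acot3 (chr12:84051894-84052193, plus strand): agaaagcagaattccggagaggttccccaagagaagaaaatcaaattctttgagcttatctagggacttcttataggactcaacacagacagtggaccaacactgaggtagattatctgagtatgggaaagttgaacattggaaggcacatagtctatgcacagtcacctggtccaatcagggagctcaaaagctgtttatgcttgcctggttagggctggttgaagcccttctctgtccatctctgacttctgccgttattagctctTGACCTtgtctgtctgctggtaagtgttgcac

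A promoter was found for 8 of the 9 genes in the table used, all but Acot13. AGGTCA or its reverse complement TGACCT occurred in 16% of 27025 promoters of this length (4335 of them). Acot4 held it once, on the minus strand with its first base at position -13 from the start, and Acot3 held it once on the minus strand at position 19. Acot1 and Acot2 held none in this window. Of the other genes Acot12 held 1, and Acot5, the neighbour of Acot3, held 2. The full element, a pair of these half-sites in direct repeat with 1 base between them, was in 12 of 27025 promoters (0.0444%) and in none of the family. These matches describe letters only.

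Acot2, which encodes the mitochondrial long-chain thioesterase, had the largest diet effect of the family in total liver. Its probe set (TC1200000797.mm.2) read 13.81, 13.14, 13.99 and 13.37 in the CDAA livers, against 10.64, 9.08, 8.82 and 9.93 in the CSAA livers. The groups did not overlap, and the lowest CDAA liver stood well above the highest CSAA liver. CDAA exceeded CSAA by 3.96 ± 0.52, or 15.5-fold (limma, adjusted p = 0.000121). All 4 CDAA livers and 1 of the 4 CSAA livers lay above the background percentile.

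In hepatocytes Acot2 read 13.27, 12.26 and 10.20 on CDAA, against 8.18, 8.35 and 8.07 on CSAA. The CSAA arrays lay close together, the CDAA arrays were spread widely, and the groups did not overlap. The difference came to 3.71 ± 0.60, or 13.1-fold (limma, adjusted p = 0.000291), with all arrays above the percentile. The order of the 3 CDAA arrays was also that of their hepatocyte markers, with list means of 17.21, 16.89 and 16.60. Endothelial (10.28, 10.06 and 8.89), cholangiocyte (4.56, 4.38 and 4.25) and PPARα target means (11.67, 10.89 and 10.05) had that order too. Between the diets the hepatocyte marker means were lower on CDAA, where Acot2 was higher. Macrophage marker means were 11.17, 12.79 and 12.61 in the 3 CDAA arrays. Means of stellate cell, lymphocyte and neutrophil, and adipocyte markers were, like these, lowest in the first array. The diet effects of the 2 tissues differed by 0.24 ± 0.79 (total liver minus hepatocytes, limma, adjusted p = 0.946).

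Acot1 encodes the cytosolic enzyme and is nearly identical in sequence to Acot2. Whether the 2 probe sets tell the transcripts apart was not tested, so part of the signal of either may come from the other. The other chromosome 12 genes are close paralogues as well, and the same holds for them. In total liver Acot1 (TC1200000798.mm.2) read 9.28, 8.16, 9.43 and 8.55 on CDAA, against 9.37, 6.60, 5.85 and 6.50 on CSAA. The first CSAA liver overlapped the CDAA livers, and the other 3 CSAA livers lay below all of them. The diet effect was 1.77 ± 0.55, with a 95% interval of 0.60 to 2.95, and missed the threshold (limma, adjusted p = 0.0544). Both groups lay under the background percentile in every array. Without the first CSAA liver the effect was 2.54 ± 0.31 (limma, adjusted p = 0.000142). That liver was the highest of its group for Acot1, so leaving it out favours a larger effect beforehand.

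The same liver stood out for the other genes of the group. It held the highest value of the 4 CSAA livers for Acot1, Acot2, Acot3 and Acot4, for 7 of the 9 family members, and for 13 of 23 measured PPARα targets. Among the CDAA livers the third held the highest value for the same 4 genes, for 7 of the 9 members and for 13 of the 23 targets. With the first CSAA liver left out, 4 of the 9 members passed in total liver and 5 did not overlap. That liver was picked out here because it was high for these genes, which favours both counts beforehand. The shares of all probe sets in that fit are not given here. In hepatocytes Acot1 read 8.45, 8.49 and 8.33 on CDAA, against 7.03, 6.79 and 6.36 on CSAA. The groups did not overlap, and the CDAA arrays lay within a narrow range although Acot2 varied widely among them. The diet effect was 1.70 ± 0.64, with an interval of 0.34 to 3.06 and a bound of 0.69 (limma, adjusted p = 0.078).

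Acot4, whose mouse product is a peroxisomal succinyl-CoA thioesterase, rose in both tissues at low intensity. In total liver its probe set (TC1200000799.mm.2) read 9.51, 8.88, 10.29 and 9.66 on CDAA, against 8.62, 6.62, 6.94 and 7.56 on CSAA. The groups did not overlap, and the first CSAA liver was again the nearest to the CDAA livers. This gave a diet effect of 2.15 ± 0.47 (limma, adjusted p = 0.00721), with no bound. Only 1 CDAA liver and no CSAA liver lay above the background percentile. In hepatocytes Acot4 read 7.62, 7.73 and 6.24 on CDAA, against 6.15, 4.53 and 5.76 on CSAA. The third CDAA array lay just above the highest CSAA array. The diet effect was 1.72 ± 0.54 (limma, adjusted p = 0.038), with no bound, and the call was lost when the hepatocyte arrays were fitted alone (limma, adjusted p = 0.113) and when any of 6 single arrays was left out.

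Acot3, which encodes a peroxisomal long-chain thioesterase, varied more among replicates than any other member. In total liver it (TC1200000800.mm.2) read 7.43, 7.03, 11.94 and 9.74 on CDAA, against 8.77, 5.47, 5.06 and 6.29 on CSAA. The third and the fourth CDAA livers were high, and the first CSAA liver lay above the other 2 CDAA livers. The diet effect of 2.64 ± 1.06 did not pass (95% interval 0.37 to 4.90, limma, adjusted p = 0.142). Only 1 CDAA liver and no CSAA liver lay above the background percentile. In hepatocytes Acot3 read 7.06, 10.33 and 7.59 on CDAA, against 6.94, 4.26 and 5.96 on CSAA. The groups did not overlap, but the lowest CDAA array lay close to the highest CSAA array, and the effect of 2.61 ± 1.23 did not pass (interval -0.01 to 5.22, bound 0.59, limma, adjusted p = 0.162).

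The next genes along the chromosome were too dim to follow. Acot5 and Acot6 lay under the percentile in all 14 arrays. The diet effect of Acot5 was -0.13 ± 0.24 in total liver and -0.02 ± 0.28 in hepatocytes (limma, adjusted p = 0.785 and 0.967). That of Acot6 was 0.10 ± 0.23 in total liver and 0.06 ± 0.27 in hepatocytes (limma, adjusted p = 0.844 and 0.9). At that intensity a change in either transcript may not be seen.

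**Figure D2:**
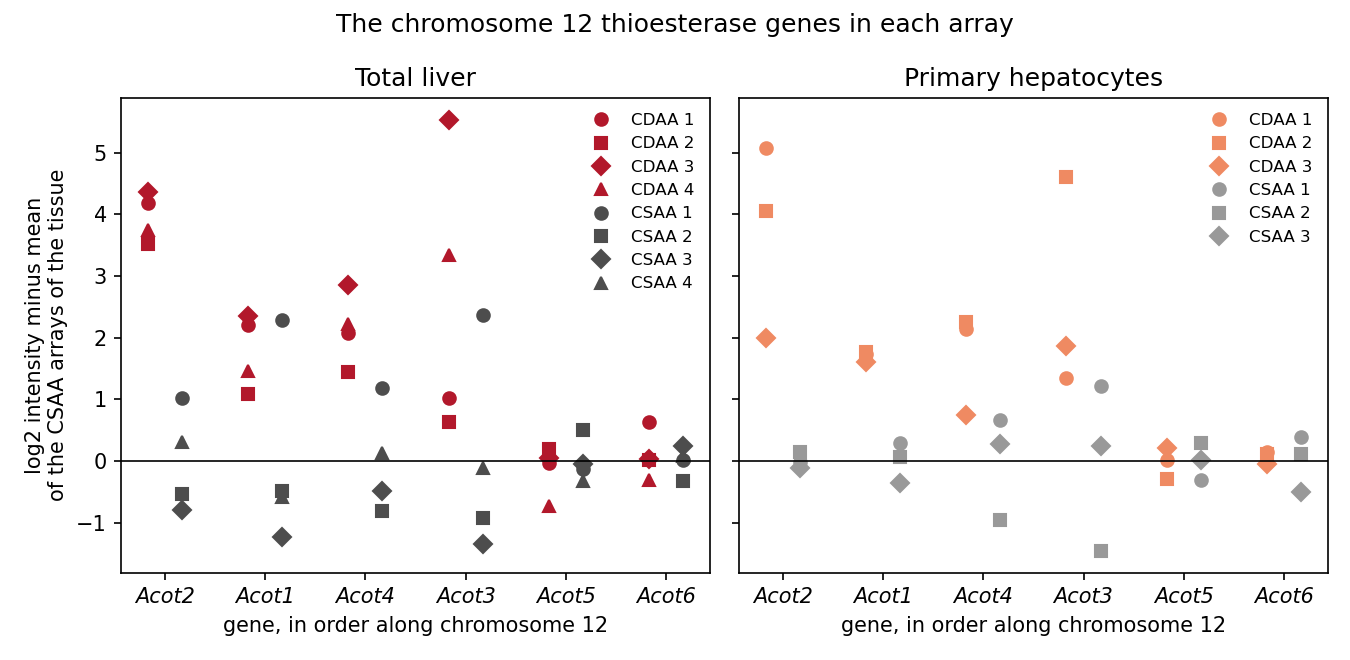
The 6 type I genes in their order along chromosome 12 (x axis), each array drawn as its log2 intensity minus the mean of the CSAA arrays of the same tissue and gene (y axis), with CDAA left of CSAA and a marker shape for each replicate number. The first 4 genes lie above 0 in every CDAA array, the first CSAA liver stands high for Acot1 and Acot3, and Acot5 and Acot6, which lie under the background percentile, stay near 0. On CSAA Acot1, Acot3 and Acot4 lie under that percentile in every array as well.

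Over the 14 arrays, with the mean of each tissue subtracted, Acot2 had a Pearson correlation of 0.916 with Acot4, 0.823 with Acot1 and 0.698 with Acot3, and Acot3 had 0.869 with Acot4. The arrays of a diet share its effect in these figures. The named genes most like Acot2 by this measure were Slc16a5 and Ifi27l2b (both 0.969) and Tbc1d9 (0.967). Those most like Acot4 were Chpf (0.929), Cyp2a22 (0.925) and Tmem181a (0.922).

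Acot9, a mitochondrial type II thioesterase encoded on the X chromosome, rose in both tissues. Its RefSeq promoter (GRCm38.p6, the same window) is given for comparison with those of chromosome 12. It held no AGGTCA on either strand and so has no capitals.
Acot9 (chrX:155262193-155262492, plus strand): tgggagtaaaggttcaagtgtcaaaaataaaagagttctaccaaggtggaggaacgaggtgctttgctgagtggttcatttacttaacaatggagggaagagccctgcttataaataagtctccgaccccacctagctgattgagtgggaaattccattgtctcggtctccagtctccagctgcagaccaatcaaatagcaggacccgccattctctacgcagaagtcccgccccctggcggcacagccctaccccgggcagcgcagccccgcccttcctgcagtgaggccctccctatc

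In total liver Acot9 (TC0X00001580.mm.2) read 9.61, 9.61, 9.18 and 9.26 on CDAA, against 6.85, 6.17, 6.66 and 6.17 on CSAA. The groups were tight and lay far apart. Acot9 was higher by 2.96 ± 0.40 (limma, adjusted p = 0.000173), though both groups lay under the background percentile, which leaves no bound. In hepatocytes it read 7.77, 9.51 and 10.20 on CDAA, against 5.54, 4.63 and 5.70 on CSAA. The groups did not overlap, and the first CDAA array was the lowest of its group. There the diet effect came to 3.87 ± 0.46 (limma, adjusted p = 1.64e-05), with a bound of 1.42.

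Acot9 and the macrophage markers were high in the same arrays, and other marker lists shared this. In the 3 CDAA hepatocyte arrays, where Acot9 read 7.77, 9.51 and 10.20, the macrophage list means were 11.17, 12.79 and 12.61. The array lowest in Acot9 was thus lowest in these markers, and in stellate cell markers too. Lymphocyte and neutrophil means and adipocyte means had the full order of Acot9, which macrophage means did not. Most genes of those lists lay under the background percentile there (9 of 11 and 4 of 5). Hepatocyte, endothelial, cholangiocyte and PPARα target means had the reverse order. Over the 14 arrays, tissue means subtracted, the correlation of Acot9 with the 14 macrophage markers lay between 0.734 (Timd4) and 0.976 (Ccr2). Correlations with the other marker lists are not given here. The named genes most like Acot9 were Cstb (0.983), Lgals3 and Bcl2a1d (both 0.980). These figures again contain the diet effect, and whether hepatocytes or other cells carried the rise in Acot9 was not tested. The effects of the 2 tissues differed by -0.92 ± 0.61 (total liver minus hepatocytes, interval -2.22 to 0.39, limma, adjusted p = 0.635). Without the first CDAA hepatocyte array that difference was -1.61 and passed (limma, adjusted p = 0.0213). That array was the lowest of its group in Acot9, so leaving it out favours a larger difference beforehand. Of 14 fits that each left out 1 array, only this 1 passed.

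**Figure D3:**
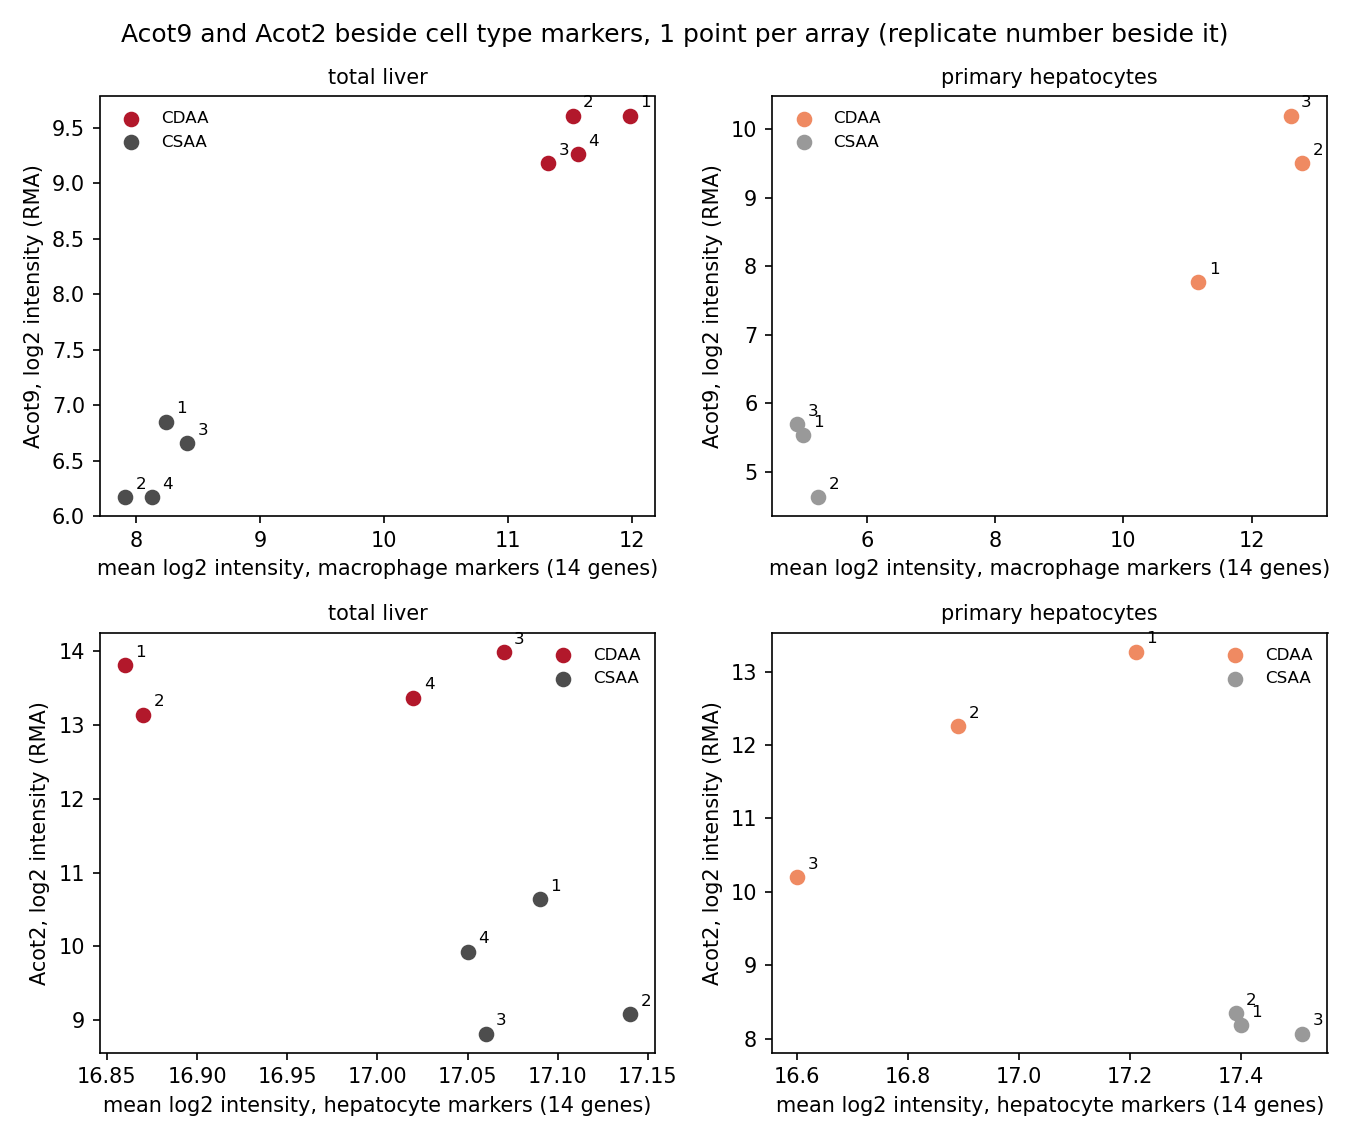
Acot9 against the mean of 14 macrophage markers (top) and Acot2 against the mean of 14 hepatocyte markers (bottom), in log2 intensity, in total liver (left) and hepatocytes (right), 1 point per array with its replicate number. Acot9 and the macrophage mean (11.17 to 12.79 on CDAA in hepatocytes) are high together, and among the CDAA hepatocyte arrays the lowest Acot2 value, 10.20, lies at the lowest hepatocyte mean, 16.60. Means of endothelial markers (8.89) and PPARα targets (10.05), not drawn, were lowest in that array too. The CDAA hepatocyte array lowest in Acot9 was also lowest in stellate cell, lymphocyte and neutrophil, and adipocyte means, not drawn.

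The remaining type II genes did not pass in either tissue. Acot13, known as Them2, is a mitochondria-associated enzyme that binds the phosphatidylcholine transfer protein Pctp. In total liver it (TC1300001669.mm.2) read 13.99, 13.19, 13.98 and 13.79 on CDAA, against 13.44, 13.38, 13.23 and 13.21 on CSAA. The first, the third and the fourth CDAA livers lay above all CSAA livers and the second lay below all of them. The diet effect was 0.42 ± 0.36 (interval -0.34 to 1.18, limma, adjusted p = 0.517). In hepatocytes it read 13.43, 15.07 and 14.97 on CDAA, against 13.45, 13.24 and 14.63 on CSAA, an overlap in both directions. The diet effect was 0.71 ± 0.41 (interval -0.16 to 1.59, limma, adjusted p = 0.261), and it passed only without the first CDAA array (1.24, limma, adjusted p = 0.0134) or with weighted arrays or a centring on hepatocyte markers. That array was the lowest of its group in Acot13, so leaving it out favours a larger effect beforehand. Pctp itself had -0.07 ± 0.27 in total liver and -0.75 ± 0.31 in hepatocytes and did not pass (limma, adjusted p = 0.914 and 0.112).

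Acot12, the cytosolic acetyl-CoA hydrolase of liver, was bright in all groups. In total liver it (TC1300001028.mm.2) read 13.61, 13.33, 13.95 and 13.82 on CDAA, against 14.11, 13.75, 13.64 and 13.63 on CSAA. The groups overlapped, and the effect of -0.10 ± 0.21 had an interval of -0.54 to 0.33 (limma, adjusted p = 0.809). In hepatocytes it read 13.13, 12.92 and 12.71 on CDAA, against 13.34, 13.09 and 13.79 on CSAA. The first CDAA array lay just above the second CSAA array, and the effect was -0.48 ± 0.24 with an interval of -0.99 to 0.02 (limma, adjusted p = 0.181).

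Acot8, a peroxisomal enzyme of broad substrate range, and Acot7, a cytosolic long-chain enzyme best known from brain, were dim. Acot8 (TC0200005132.mm.2) read 6.93 to 7.50 on CDAA and 7.29 to 7.63 on CSAA in total liver, and 7.26 to 7.63 on CDAA and 6.55 to 8.23 on CSAA in hepatocytes. Its diet effects were -0.32 ± 0.29 and 0.26 ± 0.33, and neither passed (limma, adjusted p = 0.547 and 0.648). Without the third CSAA hepatocyte array, the highest at 8.23, the hepatocyte effect was 0.78 and passed (limma, adjusted p = 0.0273). Leaving out the highest CSAA array favours a rise beforehand, and of 14 fits without 1 array only this 1 passed. Without the first CSAA hepatocyte array the effect was -0.061. Acot7 (TC0400002016.mm.2) read 7.45 to 8.43 on CDAA and 7.72 to 8.25 on CSAA in total liver, and 6.35 to 7.76 on CDAA and 6.57 to 7.40 on CSAA in hepatocytes. The intervals of its diet effects were -0.65 to 0.64 in total liver and -0.85 to 0.64 in hepatocytes. Both genes lay under the background percentile in every total liver array.

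The third comparison asked whether the diet effect differed between total liver and hepatocytes. It did so for 0 of the 9 genes, where 0.212% of all probe sets had a higher effect in total liver and 2.36% a lower one (limma), and none of the 9 had an unadjusted p under 0.05. The standard errors of these differences ran from 0.31 for Acot12 to 1.62 for Acot3.

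**Figure D4:**
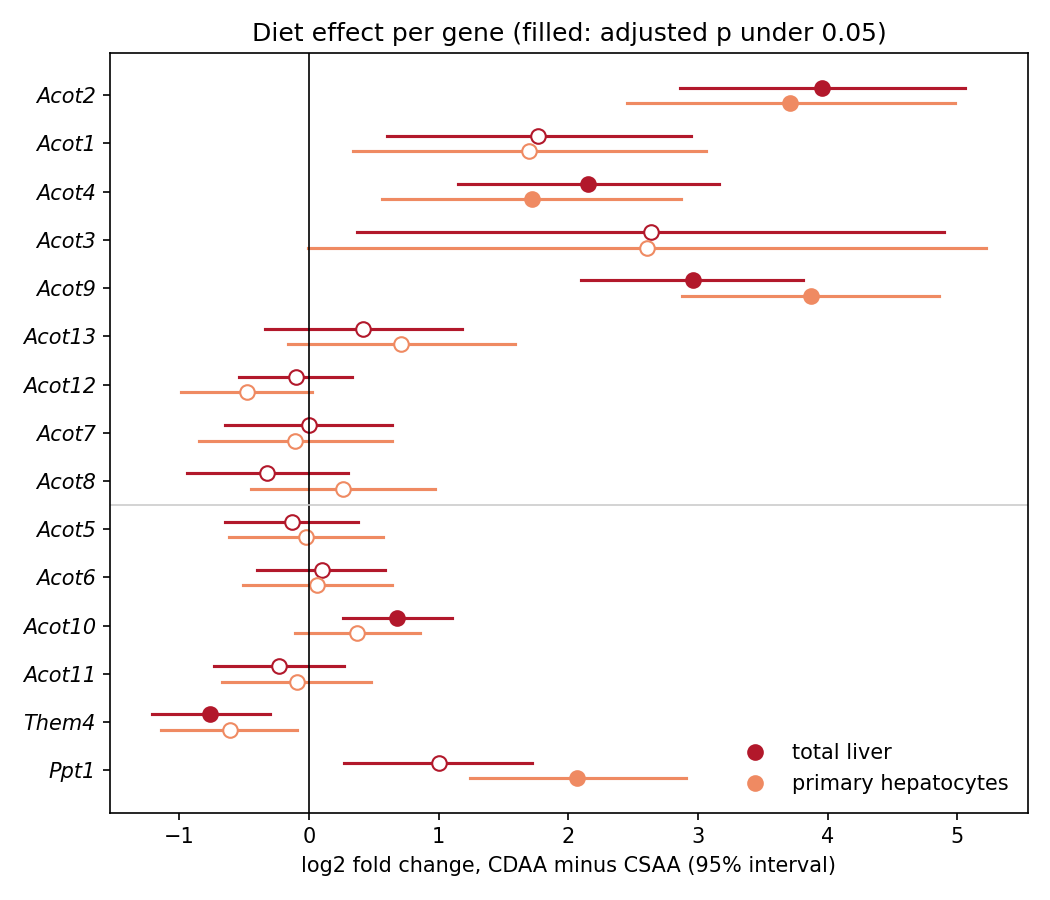
Diet effect (CDAA minus CSAA, log2, limma, with 95% intervals) of the 9 genes (above the grey line) and 6 other thioesterase genes in total liver and in primary hepatocytes, filled where the adjusted p was under 0.05. Acot2 (3.96 and 3.71) and Acot9 (2.96 and 3.87) have the largest fitted values in both tissues, although both Acot9 groups lie under the background percentile in total liver, and the intervals of Acot7, Acot8, Acot12 and Acot13 include 0.

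Of 11 other thioesterases measured, 1 rose and 1 fell in total liver, where 6.73% of all probe sets rose and 3.54% fell. In hepatocytes 1 rose and none fell, where 11.0% of all probe sets rose and 7.74% fell. The same shares, for the main fit, go with the counts of the lists below. Acot10, an intron-less relative of Acot9 whose probes may share its signal, had 0.68 ± 0.20 in total liver, and Them4 had -0.76 ± 0.21 (limma, adjusted p = 0.0377 and 0.0331). Both lay under the background percentile in every array, and each lost its call when any of 7 of the 8 total liver arrays was left out. In hepatocytes Ppt1, a lysosomal thioesterase that frees palmitate from proteins, read 9.17, 10.71 and 9.22 on CDAA, against 8.05, 6.85 and 7.99 on CSAA, a rise of 2.07 ± 0.39 (limma, adjusted p = 0.00129).

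Among acyl-CoA synthetases, which make the substrate, calls went in both directions. Of 19 measured, 2 rose and 4 fell in total liver, and 1 rose and 5 fell in hepatocytes. Without the first CDAA liver none rose and 3 fell in total liver. Calls over all probe sets in total liver were 1510 to 3115 without 1 array, against 2279 in the main fit. Acss2, which makes acetyl-CoA from acetate, read 10.04 to 10.34 on CDAA and 11.99 to 13.38 on CSAA in total liver, and fell by 2.41 ± 0.38 there and fell by 2.89 ± 0.43 in hepatocytes (limma, adjusted p = 0.000562 and 0.000161). Slc27a5, the bile acid and fatty acid CoA ligase of hepatocytes, fell by 1.11 ± 0.21 in total liver and fell by 2.09 ± 0.24 in hepatocytes (limma, adjusted p = 0.00251 and 1.13e-05). Acsl4, the ligase of arachidonate, rose by 0.88 ± 0.21 in total liver (limma, adjusted p = 0.0127) and had 0.30 ± 0.24 in hepatocytes.

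Of 12 measured genes of coenzyme A supply and breakdown, 3 fell in total liver and 4 in hepatocytes, and none rose. These counts depend on the fit: with the total liver arrays alone 2 rose and 4 fell in total liver, and with array weights 3 rose and 4 fell in each tissue. With centring on hepatocyte markers, which shifts all hepatocyte diet effects upward, 7 rose and 2 fell in hepatocytes. Over all probe sets, total liver calls were 4613 with its arrays alone and 4992 with array weights, against 2279 in the main fit. In hepatocytes they were 6806 with array weights and 13296 with that centring, against 4158. Nudt7, the peroxisomal hydrolase that degrades coenzyme A, had 3 probe sets, of which only the brightest is given. In total liver it read 12.64, 12.70, 13.85 and 13.96 on CDAA, against 16.50, 16.13, 16.66 and 16.58 on CSAA. It fell by 3.18 ± 0.52 there and fell by 2.85 ± 0.60 in hepatocytes (limma, adjusted p = 0.000778 and 0.00286). Pank1, a kinase of the first step of coenzyme A synthesis, fell by 1.67 ± 0.36 in total liver and fell by 2.53 ± 0.42 in hepatocytes (limma, adjusted p = 0.00663 and 0.00038). The mitochondrial coenzyme A carrier Slc25a42 fell by 1.61 ± 0.37 in total liver and fell by 2.39 ± 0.42 in hepatocytes (limma, adjusted p = 0.00928 and 0.000734).

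Peroxisomal β-oxidation, the pathway that runs beside the peroxisomal thioesterases, had 0 of 17 measured genes up and 5 down in total liver, and 0 up and 6 down in hepatocytes. In total liver the calls were 2 up and 6 down with its arrays fitted alone, 3 up and 6 down with array weights, and 0 to 2 up and 1 to 5 down without 1 array. Over all probe sets those fits called 4613, 4992 and 1510 to 3115 in total liver, against 2279 in the main fit. Hacl1, which cleaves hydroxylated acyl-CoA, fell by 2.22 ± 0.29 in total liver and fell by 2.52 ± 0.34 in hepatocytes (limma, adjusted p = 0.000141 and 5.39e-05). Of 17 measured genes of mitochondrial β-oxidation, 1 fell in total liver and 4 in hepatocytes, among them the thiolase gene Acaa2 with -0.66 ± 0.17 and -0.92 ± 0.20 (limma, adjusted p = 0.0241 and 0.00388). With each tissue fitted alone, 1 of these genes rose and 3 fell in total liver, and none passed in hepatocytes. Without the first CDAA hepatocyte array 8 fell in hepatocytes, and without any of 5 single livers none passed in total liver. Hepatocyte calls over all probe sets were 1883 with those arrays alone and 3039 to 5811 without 1 array, against 4158 in the main fit.

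How many PPARα targets outside the family passed depended on the fit. Of 23 measured, 2 rose and 1 fell in total liver, and 2 rose and 2 fell in hepatocytes, with medians of 0.37 and -0.11. Both that rose in total liver, the lipid droplet gene Cidec (5.18 ± 0.34, bound 0.89) and the fatty acid transporter Cd36 (4.52 ± 0.35, bound 3.76), are also expressed in fat or macrophages (limma, adjusted p = 1.93e-07 and 1.04e-06). Which cells carried these rises was not tested. The liver fatty acid binding protein gene Fabp1 fell by 1.09 ± 0.21 (limma, adjusted p = 0.00258). In total liver 7 rose and 1 fell with its arrays fitted alone, 9 rose and 1 fell with array weights, and 5 rose and 1 fell without the first CSAA liver or without the first CDAA hepatocyte array. Over all 22206 probe sets, total liver calls numbered 2279 in the main fit, 4613 with its arrays alone and 4992 with array weights. Without 1 array they numbered 1510 to 3115. The first CSAA liver held the highest CSAA value for 13 of the 23 targets, which favours rises without it beforehand. Centring on hepatocyte markers gave 10 up in total liver and 11 up in hepatocytes, with none down. In hepatocytes 13296 of all probe sets passed with it, against 4158 in the main fit. This centring used only Hnf4a, Asgr1, Asgr2 and F9, of which Hnf4a, Asgr2 and F9 fell in hepatocytes. It therefore raises every diet effect beforehand, more in hepatocytes than in total liver, and is no independent check. Cyp4a14, a fatty acid hydroxylase named here after its values were seen, read 16.72, 15.68, 17.13 and 16.46 on CDAA, against 15.85, 11.97, 10.38 and 15.54 on CSAA. The first CSAA liver overlapped the CDAA livers and the fourth lay just under the lowest of them, and the effect of 3.06 ± 1.26 did not pass (limma, adjusted p = 0.15).

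Ppara, the gene of the receptor, was not higher on CDAA. In total liver it read 12.41, 12.37, 14.01 and 13.93 on CDAA, against 13.77 to 14.13 on CSAA. The first and the second CDAA livers were low, and the other 2 lay among the CSAA livers. The effect was -0.82 ± 0.45 (limma, adjusted p = 0.3). In hepatocytes Ppara fell by 2.09 ± 0.52 (limma, adjusted p = 0.0102). The call was lost with the hepatocyte arrays fitted alone (limma, adjusted p = 0.0674). It was also lost with centring on hepatocyte markers (-0.87, limma, adjusted p = 0.0816), which raises every diet effect beforehand. The other settings that left out no array kept it. In hepatocytes 4 of 14 hepatocyte markers fell too, and their part in the Ppara effect was not tested. Pparg, the related receptor of fat cells and macrophages, rose by 1.75 ± 0.35 in total liver, with no bound, and by 2.58 ± 0.40 in hepatocytes, with a bound of 0.49 (limma, adjusted p = 0.00361 and 0.000234).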

How the data were processed

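The authors deposited log2 intensities per probe set, made by RMA per the submitters' processing notes; its version and the annotation used for summarising are not given in the sources used here. RNA was labelled with the WT PLUS kit, per the labels' protocols. Of 28846 probe sets, 6640 controls were left out and 22206 tested without a filter on dim ones; 19572 had 1 symbol and 2634 none in the annotation supplied with the series. Groups follow the tissue and diet in the array titles. limma 3.58.1 in R 4.3.3 fitted 1 mean per group over the 14 arrays (10 residual and 5.11 prior degrees of freedom), with two-sided moderated tests and Benjamini-Hochberg adjustment over 22206 probe sets per contrast. Number of arrays and signal over background limit the precision.

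The members and gene lists were chosen with earlier results of these data known. Named were all members, up to 4 genes per list with the smallest p in total liver and up to 3 in hepatocytes (of which the text gives some), and for each member that passed the 3 genes with the most similar pattern. Genes with several probe sets were read from the brightest. The intron percentile was chosen after the data were seen. Some listed genes were not found by symbol and are not analysed here. Equal replicate numbers were not treated as pairs, and whether such arrays share an origin is not known. The residual correlation of same-numbered arrays was -0.126 to 0.015 for total liver. For hepatocytes it was 0.346, -0.211 and 0.262, which does not settle the question. The alternatives were array weights, a fit of the compared tissue alone, a replicate block, trended robust moderation, centring on medians, quantile normalization over both tissues together, dropping the dimmest 30%, averaging a gene's probe sets, leaving out each array, and, added after the data were seen, centring on hepatocyte markers under a level of 16. That centring used only Hnf4a, Asgr1, Asgr2 and F9. The code was tested on simulated data.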

Additional observations from a re-analysis of the deposited data

How the results depend on the processing

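Acot2 and Acot9 kept their call in both tissues, and Acot4 its call in total liver, under all 9 alternative settings and without any single array. Leaving out 1 array gave 3.69 to 4.30 for Acot2 in total liver and 3.03 to 4.57 in hepatocytes, and 2.86 to 3.08 and 3.35 to 4.57 for Acot9. Acot4 in hepatocytes ran from 1.24 to 2.20 and kept its call in 8 of 14 such fits; it lost it with joint quantile normalization (adjusted p = 0.0531), centring on medians (0.0524) and the hepatocyte arrays alone (0.113). Acot1 passed under 5 of the 9 settings in total liver and 3 of 9 in hepatocytes. Members that passed numbered 3 to 4 in total liver, 2 to 4 in hepatocytes and 0 to 1 for the difference between tissues without 1 array, and 3 to 5 and 5 to 7 did not overlap. With fewer arrays, non-overlap is easier for any probe set, and its share over all probe sets is not given for these fits. Array weights gave 5, 5 and 1, the last being Acot9. Calls over all probe sets without 1 array were 1510 to 3115 against 2279 in total liver, 3039 to 5811 against 4158 in hepatocytes and 396 to 2265 against 570 for the difference. Array weights gave 4992, 6806 and 2725, and each tissue alone gave 4613 and 1883. Equal replicate numbers shared no known origin; with the replicate block 4 members passed in each tissue, the fourth being Acot1 (limma, adjusted p = 0.0262 and 0.0374). Centring on hepatocyte markers put the median of all probe sets at 0.377 in total liver and 1.098 in hepatocytes, against -0.092 and -0.129 as deposited (centring on medians put it at -0.231 and -0.289), and 5 and 8 members and 13296 hepatocyte probe sets then passed, so direction calls near 0 rest on the scaling. With it the signs turned in total liver for Acot7 (0.47), Acot8 (0.15), Acot12 (0.36) and Etfa (0.14), in hepatocytes for Acot7 (1.12), Acot12 (0.74), Them4 (0.61), Baat (0.58), Acaa2 (0.30), Eci1 (0.0089) and Etfa (0.56), and for the difference in Acot1 (-0.68), Acot2 (-0.51), Acot3 (-0.73), Acot4 (-0.32), Acot7 (-0.65) and Acot12 (-0.38). Array weights turned Acot7 in hepatocytes (0.38) and the differences of Acot2 (-0.042), Acot3 (-1.20) and Acot7 (-0.39), and joint quantile normalization turned Acot8 in hepatocytes (-0.0029) and the difference of Acot3 (-0.10). Without 1 array the sign also turned for Acot7 (-0.16 to 0.16) and Acot12 (-0.19 to 0.011) in total liver, for Acot7 (-0.49 to 0.22) and Acot8 (-0.061 to 0.78) in hepatocytes, and for the differences of Acot1 (-0.34 to 0.84), Acot2 (-0.61 to 0.92), Acot3 (-0.94 to 1.03), Acot4 (-0.045 to 0.91) and Acot7 (-0.22 to 0.48). The cause was not tested.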
